A study of Mus musculus with 9 samples.

Results

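The 83 cytosolic ribosomal protein genes were followed here, among 11802 genes listed in a table of messengers captured on tagged ribosomes from mouse white adipose tissue. A gene was taken if its symbol began with Rpl or Rps and a number, a p or an a. Symbols ending in a pseudogene number (-ps), the Rps6k kinases and Rps19bp1 were left out, and Rpl22, the gene of the tagged protein, was kept. By symbol, 48 genes belong to the large subunit and 35 to the small subunit. Of the 83, 9 are paralogs or retrogene copies by name: Rpl6l, Rpl7l1, Rpl22l1, Rpl37rt, Rps3a2, Rps3a3, Rps4l, Rps27l and Rps27rt. Rpl6l, Rpl37rt, Rps3a2, Rps3a3 and Rps4l are annotated as processed pseudogenes and were kept because their symbols met the rule. GENCODE M21 has 92 symbols that meet the same rule. The other 9, Rpl24, Rpl29 and Rps10 among them, were not among the listed genes and so could not be analysed here.

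Every mouse carried Pdgfb-iCreERT2, a tamoxifen-inducible Cre recombinase expressed from an endothelial promoter, and Rpl22HA, an allele that gives ribosomes an HA tag once Cre has acted. The 4 WT libraries came from Pdgfb-iCreERT2:Rpl22HA mice and the 5 KO libraries from Pdgfb-iCreERT2:Mfn2iΔEC:Rpl22HA mice, in which endothelial cells lack Mfn2, the mitofusin that joins outer mitochondrial membranes. The ages of the mice, their sex and the tamoxifen schedule were not used here. Ribosomes were pulled down with an anti-HA antibody from 50 to 100 mg of tissue, and 2 to 5 ng of the RNA went into a low-input kit that copies polyadenylated messengers. Replicates are labelled as biological, without a named animal, so the spread that p-values measure is that among libraries and may be technical in part.

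A cytosolic ribosome holds a single copy of most of these proteins, and its large and small subunits are assembled in the nucleolus around ribosomal RNA. Most messengers for ribosomal proteins begin with a C followed by a run of pyrimidines, the 5′ terminal oligopyrimidine (TOP) tract. Through it the mTORC1 kinase and the RNA-binding protein Larp1 set how many ribosomes such a messenger carries, so that supply of all the proteins moves together. A pull-down of ribosomes therefore reads how much of each messenger is engaged with tagged ribosomes, and the level of the messenger itself and its loading cannot be told apart. In a pull-down from whole tissue, fewer captured cells and less RNA per cell cannot be told apart either.

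Some of these genes have, at an annotated start, a run of pyrimidines like the tract that gives TOP messengers their name, and others have a short run. Each stretch below covers the 15 bases before and the first 15 bases after a start given by RefSeq (GRCm38.p6), read on the gene's own strand. Capitals mark the longest run of C and T that reaches into the 5 bases on either side of that start, and runs farther away are left in lower case. The first 7 are shown for their long run, of 9 to 19 bases, and the last 2, Rpl22 and the laminin-binding Rpsa, for a short one, of 1 and 3 bases. Another RefSeq start of Rpl22 has a run of 4.
Rplp2 (chr7:141447636-141447665, plus strand): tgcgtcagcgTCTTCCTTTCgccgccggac
Rps6 (chr4:86857353-86857382, minus strand): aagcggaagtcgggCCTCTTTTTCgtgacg
Rpl35 (chr2:39005117-39005146, minus strand): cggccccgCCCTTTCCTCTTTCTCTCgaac
Rpl15 (chr14:18270972-18271001, minus strand): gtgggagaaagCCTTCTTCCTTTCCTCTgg
Rps26 (chr10:128626492-128626521, minus strand): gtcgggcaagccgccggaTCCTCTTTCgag
Rpl27a (chr7:109519180-109519209, plus strand): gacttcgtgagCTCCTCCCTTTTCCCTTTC
Rpl22l1 (chr3:28805493-28805522, plus strand): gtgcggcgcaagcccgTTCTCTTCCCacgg
Rpl22 (chr4:152325711-152325740, plus strand): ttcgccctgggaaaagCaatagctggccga
Rpsa (chr9:120127751-120127780, plus strand): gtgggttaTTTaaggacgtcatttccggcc

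RefSeq starts were at hand for 60 of the 83 genes. The letters CTTTCC lay within 50 bases of a start, on the sense strand, in 18 of the 60 (30.0%), against 5.24% of the 8030 listed genes with a RefSeq start. On the antisense strand CTTTCC was found in 2 of the 60 (3.33%), against 4.78% of the listed genes. The overlapping pyrimidine word CTCTTT was found on the sense strand in 19 of the 60 (31.7%), against 4.03% of the listed genes, and on the antisense strand in 1 (1.67%, against 2.60%). Of the 60, 29 held at least 1 of these words on the sense strand (48.3%), against 8.34% of the listed genes with a start. Such a match describes letters in a window and does not show that a messenger starts there.

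Ribosomal protein genes have left many processed copies in the mouse genome. Outside the 83, 323 listed pseudogenes had at least 90% identity to a member's coding part over at least 50% of its length. They matched 67 of the 83 genes. These rows held more CPM (reads of a gene per 1000000 reads of the library) than the genes themselves in all 9 libraries. The ratio of pseudogene to gene CPM ran from 1.56 in KO5 to 1.89 in WT1. In 48 of the 83 genes the pseudogene rows together exceeded the gene. Of the 323 pseudogene rows, 21 were 100% identical to their gene over the aligned part.

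The coding sequences of such copies are close to those of their source. Each pair below is a 60-base stretch of coding sequence on GRCm38, read on the gene's own strand from GENCODE M21 transcripts, with differing bases in capitals. Rpl13a and its pseudogene Gm11478 differed at 8 of 593 aligned coding bases, and Rps9 and its pseudogene Gm5905 at 11 of 577. Rpl5 and Gm15500 did not differ at any of 891, so only their shared stretch is given, and neither did Rps27 and Rps27rt at any of 252.
Rpl13a (chr7:45127211-45127270, minus strand): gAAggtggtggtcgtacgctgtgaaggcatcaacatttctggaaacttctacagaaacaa
Gm11478 (chr11:86630887-86630946, minus strand): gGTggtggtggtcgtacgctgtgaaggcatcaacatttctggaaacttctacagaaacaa
Rps9 (chr7:3706701-3706760, plus strand): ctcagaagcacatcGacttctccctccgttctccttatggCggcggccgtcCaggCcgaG
Gm5905 (chr7:141177953-141178012, minus strand): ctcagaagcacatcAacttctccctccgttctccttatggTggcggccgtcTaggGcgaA
Rpl5 (chr5:107901870-107901929, plus strand) and Gm15500 (chr7:114706101-114706160, minus strand): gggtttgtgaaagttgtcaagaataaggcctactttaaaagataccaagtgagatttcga

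Rpl5, which carries the 5S ribosomal RNA into the large subunit, and its identical copy Gm15500 were listed at nearly the same level in each library. Rpl5 stood at 37.8, 57.0, 57.3 and 64.6 CPM in WT1 to WT4 and at 67.1, 65.5, 182.9, 178.6 and 262.6 CPM in KO1 to KO5. Gm15500 stood at 31.1, 48.3, 60.4 and 67.5 CPM in WT1 to WT4 and at 72.2, 67.4, 172.4, 170.4 and 229.2 CPM in KO1 to KO5. Gm15500 was the higher of the pair in WT3, WT4, KO1 and KO2 and the lower in the other 5 libraries.

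Rpl13a, a large subunit protein that also serves in a complex that silences inflammatory messengers, had few reads of its own. It was listed at 0.45, 0, 0 and 1.90 CPM in WT1 to WT4 and at 2.43, 0, 7.21, 8.20 and 3.86 CPM in KO1 to KO5, the lowest mean of the 83. Its pseudogene Gm11478 was listed at 40.1, 85.5, 53.1 and 102.6 CPM in WT1 to WT4 and at 129.0, 100.8, 142.1, 110.7 and 224.8 CPM in KO1 to KO5. How many reads of Rpl13a were counted to its copies was not tested. Rps2 averaged 197 CPM beside 1013 CPM over 22 pseudogene rows, and Rpsa averaged 253 CPM, as did Rpsa-ps10 among its 13 rows.

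**Figure D1:**
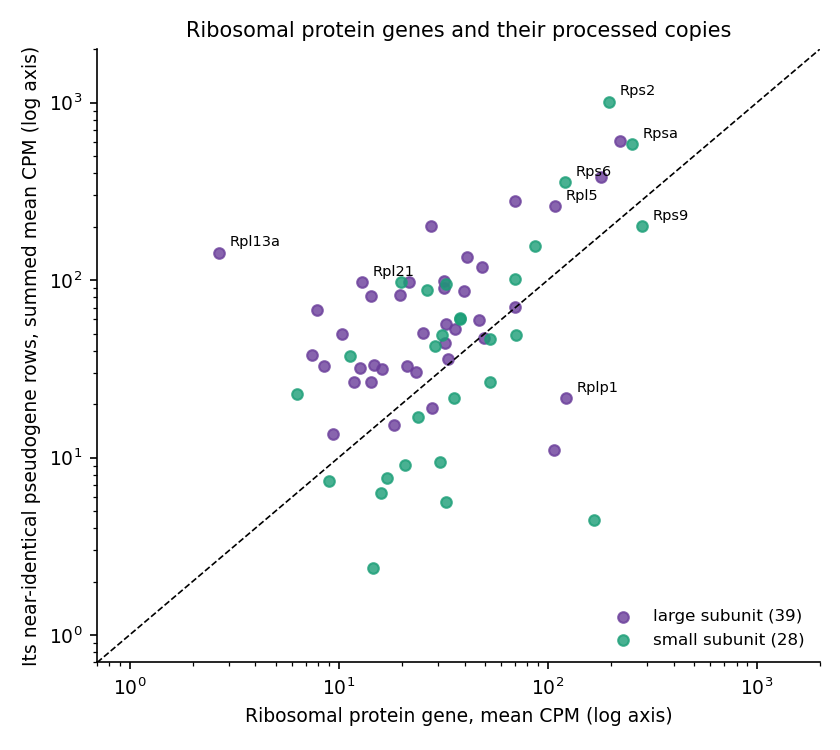
Mean CPM of each ribosomal protein gene over 9 libraries (x axis, log scale) against the summed mean CPM of the pseudogene rows that match it at 90% identity or more (y axis, log scale), for the 67 genes with such a row. Of these points 48 lie above the dashed line of equal values, with Rpl13a farthest from it, at 2.67 CPM against 143 CPM of pseudogene rows.

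Many members shared most of their coding sequence with other genes. In 28 of the 78 members annotated as protein-coding, every 50-base window of the coding part also occurred in another annotated gene. In 42 at least 90% of windows did. Untranslated parts of the messengers were not compared. Under 25% of windows were shared in Rps3, Rpl8, Rpl4 and Rpl7l1, among others. Rpl8 had no annotated copy at all. How reads that fit several places were counted is not given in the sources used here, and the part of the copies in each member's value was not tested.

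The members differed widely in level. Mean CPM ran from 2.67 (Rpl13a) to 372 (Rplp2) with a median of 27.8, and 15 members averaged under 10 CPM and 12 over 100 CPM. Divided by exon length, taken as all annotated exons of a gene merged over its transcripts, levels ran from 1.26 to 244 CPM per kb. That is a 193-fold range, and it rests on the annotated lengths as well as on the reads. The median was 13.1 CPM per kb, against 3.92 CPM per kb over 10071 nuclear protein-coding genes. The 10 highest members held 49.1% of the members' mean CPM.

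The acidic stalk proteins led the large subunit. Rplp1 and Rplp2, which form the stalk that recruits elongation factors, averaged 244 and 180 CPM per kb. Next came Rpl8, a protein at the peptidyl transferase centre, at 76.4 CPM per kb. In the small subunit the highest levels per kb were those of Rps9 (112) and Rps2 (108), which line the channel where the messenger enters, and of Rpsa (79.7). The lowest per kb were Rpl13a (1.26) and Rpl22l1 (1.63) in the large subunit and Rps15a (2.33) and Rps13 (2.35) in the small subunit. This order depends on the merged exon length. Rps15a averaged 14.6 CPM over 6270 bases, above the 5.04 CPM of Rps27 over 1043 bases. Rplp1 averaged 122 CPM over 499 bases, below the 372 CPM of Rplp2 over 2072 bases. The CPM of matching pseudogene rows is not part of these levels. Those rows held 143 CPM for Rpl13a, beside its own 2.67 CPM, while Rplp2 and Rpl8 had no such row.

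Rplp2 stood at 144, 223, 170 and 351 CPM in WT1 to WT4 and at 267, 332, 628, 562 and 672 CPM in KO1 to KO5. It held between 7.95% and 10.5% of the members' CPM in the 9 libraries. Across the 78 protein-coding members, mean CPM per kb had a Spearman correlation of 0.22 with GC content and of -0.06 with the share of windows found in other genes. These describe genes of the same libraries, which are not independent replicates.

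**Figure D2:**
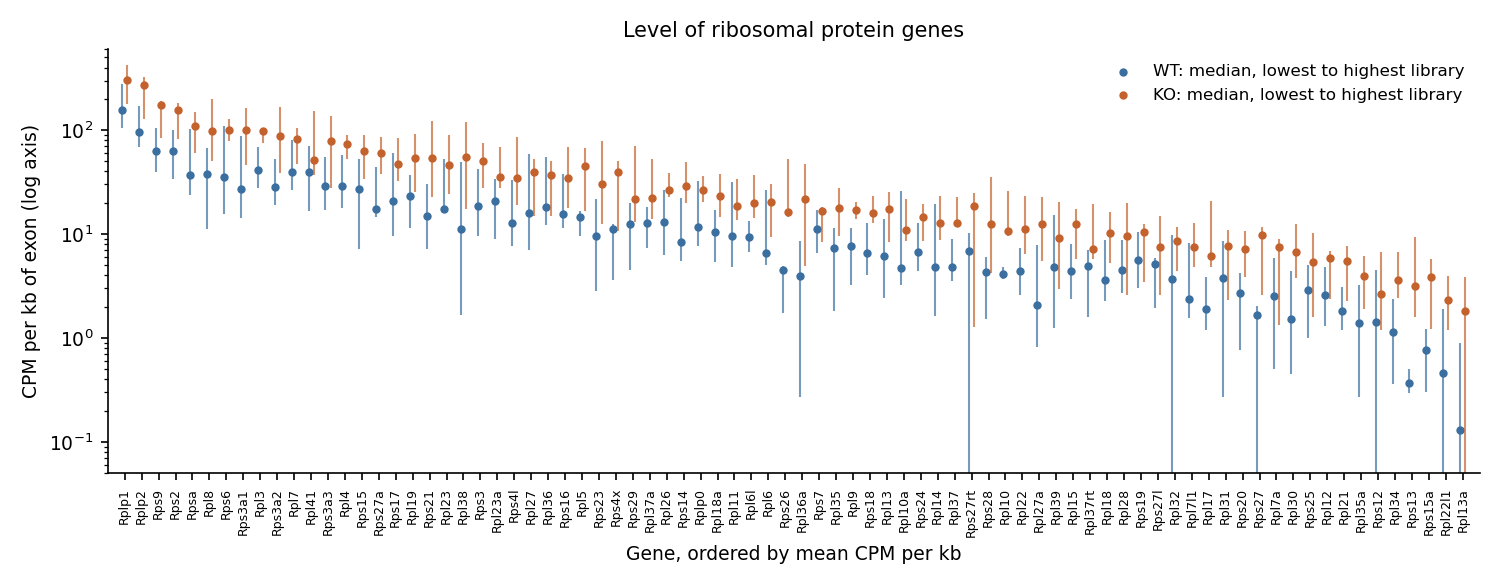
CPM per kb of exon (y axis, log scale) for 80 of the 83 ribosomal protein genes in order of their mean. Points are medians over 4 WT (blue) or 5 KO (orange) libraries and lines run from the lowest to the highest library, reaching the lower edge where a library is at 0. Levels fall from 244 CPM per kb for Rplp1 to 1.26 for Rpl13a.

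Depth and makeup differed between libraries. The totals behind the CPM ran from 1052310 reads in WT4 to 3887685 in KO5, and the members drew 3056 to 30133 reads. The mitochondrial ribosomal RNAs mt-Rnr1 and mt-Rnr2 took 64.8%, 47.5%, 48.3% and 13.9% of listed CPM in WT1 to WT4 and 18.1%, 25.2%, 19.8%, 15.1% and 12.8% in KO1 to KO5. Since CPM sum to a fixed total, the more of it those RNAs took, the less was left for all other genes. The median log2(CPM + 1) over all genes was 3.46 ± 0.51 (SD, n = 4) in WT and 4.44 ± 0.18 (SD, n = 5) in KO. Changes are therefore given on 2 scales: in deposited CPM, and relative to the median of the library, which removes that shift.

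Mfn2, the targeted gene, had no lower listed value in KO. It was listed at 20.3, 55.8, 30.5 and 38.0 CPM in WT1 to WT4 and at 129.6, 35.4, 57.0, 65.6 and 46.0 CPM in KO1 to KO5, so that the groups overlapped. Relative to the library median, Mfn2 differed by -0.16 on the log2 scale (KO minus WT, 95% interval -0.92 to 0.60, limma adjusted p = 0.898). A count over the whole gene includes exons outside a deleted part, and which exons the allele removes is not given in the sources used here, so this value does not check the labels. WT and KO below mean the libraries so labelled.

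Rpl22, whose HA-tagged form carries the capture, had no outstanding level. It was listed at 8.55, 17.4, 21.5 and 7.60 CPM in WT1 to WT4 and at 31.3, 18.6, 38.2, 32.2 and 67.7 CPM in KO1 to KO5, where KO2 lay within the WT range. It ranked 43rd of the 83 members by mean CPM in WT and 42nd in KO. In deposited CPM, Rpl22 was higher in KO by 1.39 ± 0.50 (log2, SE; limma adjusted p = 0.033). That call was lost without WT1, KO3, KO4 or KO5, at 1.22, 1.35, 1.41 and 1.15, and when mitochondrial rRNA was left out and the libraries rescaled, at 0.83 (adjusted p = 0.253). Relative to the library median its difference was 0.41 (95% interval -0.49 to 1.32, adjusted p = 0.758).

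The members together took a larger share of listed CPM in 3 of the 5 KO libraries than in any WT library. The share was 0.139% in WT1 (95% Wilson interval 0.134 to 0.144), 0.240% in WT2 (0.234 to 0.246), 0.195% in WT3 (0.188 to 0.201) and 0.435% in WT4 (0.423 to 0.448). In KO1 it was 0.343% (0.336 to 0.349), in KO2 0.380% (0.372 to 0.389), in KO3 0.652% (0.642 to 0.661), in KO4 0.631% (0.619 to 0.644) and in KO5 0.787% (0.778 to 0.796). The intervals take in the counting error of reads within a library, and not the spread among libraries. PCR copies of 1 molecule were not told apart, so the intervals may be too narrow for counts of molecules as well. WT4, the WT library with the least mitochondrial rRNA, lay above KO1 and KO2. The group means were 0.252% ± 0.129 (SD, n = 4) and 0.559% ± 0.190 (SD, n = 5), a ratio of 2.22.

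Of the CPM of nuclear protein-coding genes alone, the 78 members annotated as protein-coding held 0.561%, 0.609%, 0.505% and 0.738% in WT1 to WT4. They held 0.518%, 0.652%, 0.922%, 0.894% and 0.978% in KO1 to KO5. Over this denominator the ratio of the KO to the WT mean was 1.31 and 2 of the 5 KO libraries lay within the WT range. The ratio of large to small subunit CPM was 1.24 ± 0.15 (SD, n = 4) in WT and 1.14 ± 0.08 (SD, n = 5) in KO, with overlap. A sum over the members was given no test.

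**Figure D3:**
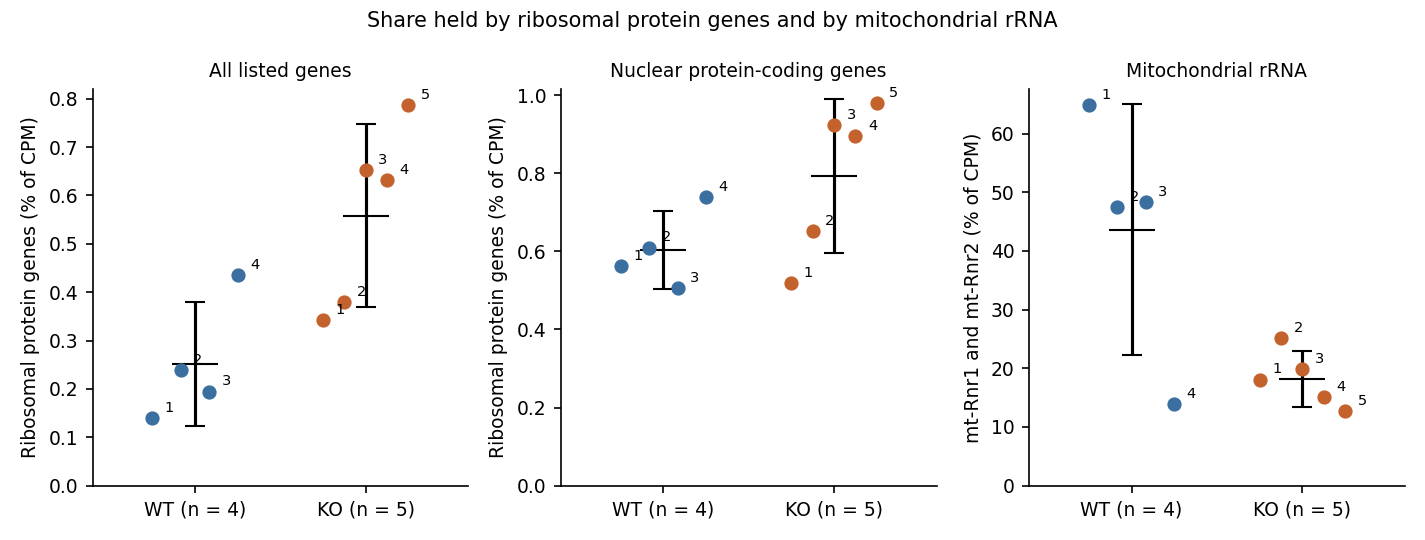
Share of CPM (y axes, percent) held by the ribosomal protein genes among all listed genes (left) and among nuclear protein-coding genes (middle), and by mitochondrial rRNA (right). Each point is a library with its replicate number, and bars show the mean and SD of 4 WT and 5 KO libraries. The share of all 83 members over all listed genes averages in KO 2.22 times that in WT. For the 78 protein-coding members over nuclear protein-coding genes it averages 1.31 times that in WT.

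In deposited CPM every member had a higher fitted mean in KO than in WT, as did 94.6% of all 11802 genes. Of the 83 members, 41 passed the test (49.4%; limma, adjusted p under 0.05), against 32% of all genes. None was lower, against 0.203% of all genes. The calls covered 23 of the 35 small subunit genes (65.7%) and 18 of the 48 large subunit genes (37.5%). The median log2 difference was 1.23 over the members and 1.10 over all genes. In 13 members every KO library lay above every WT library, which held for 18.7% of all genes, among them the members Rpl3, Rpl5, Rpl6l, Rpl9, Rpl10, Rpl17, Rpl34, Rpl37, Rps13, Rps18, Rps26 and Rps27. In 0 members did every KO library lie below every WT library, against 0.0254% of all genes.

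This count rested on the scale and on single libraries. No member passed when mitochondrial rRNA was left out and the libraries rescaled (0.186% of all genes), and none under quantile normalisation (0.0339%). It was 4 without WT1, 18 without WT3, 11 without KO3, 17 without KO4 and 11 without KO5, settings in which the share of all genes called higher was 9.27%, 15.2%, 14.3%, 17.7% and 15.5%. It was 29 without WT2 (24.3% of all genes), 61 without WT4 (50.1%), 44 without KO1 (29.7%) and 43 without KO2 (32.4%). WT1 was the lowest of the 9 libraries in 53 of the 83 members and KO5 the highest in 50. Over all genes, too, the median log2(CPM + 1) was lowest in WT1 (2.87) and highest in KO5 (4.64). The share of all genes lowest or highest in these libraries was not counted, so whether this is particular to the members cannot be told. The members' median stood above that of all genes by 0.24 in WT1 and by 1.23 in KO5. In the other libraries it did so by 0.10 (KO1) to 0.86 (KO3).

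Relative to the library median no member passed in either direction, against 0.0339% of all genes higher and 0.0763% lower. At an unadjusted p under 0.05, 5 members were higher and none lower, against 5.99% and 5.69% of all genes. edgeR on the recovered reads, with its scaling factors, called 0 of the members, and DESeq2 called 0 of the 68 to which it gave an adjusted p. The median difference was 0.26 over the members and 0.12 over all genes, and 63 of 83 lay above 0 (75.9%), against 57.9% of all genes. The differences ran from -0.60 (Rps7) to 1.39 (Rps26). The median was 0.31 over the small subunit genes and 0.18 over the large subunit genes.

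**Figure D4:**
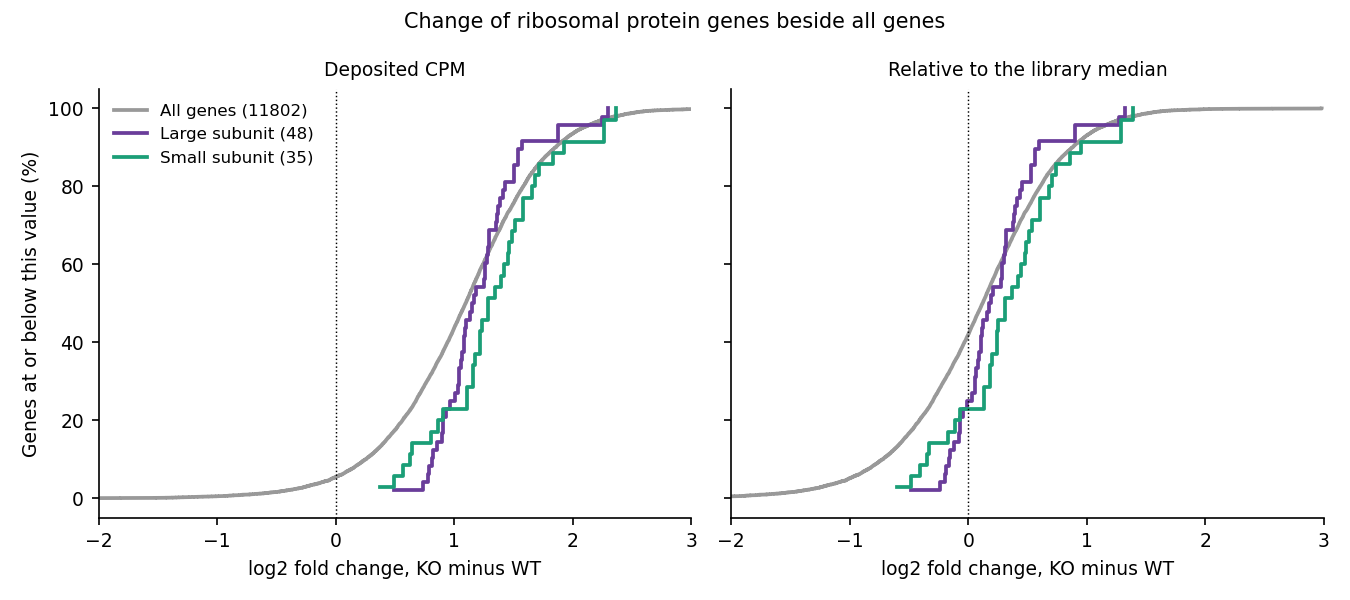
Cumulative share of genes (y axis, percent) at or below a log2 difference, KO minus WT (x axis), for all 11802 genes (grey), 48 large subunit genes (purple) and 35 small subunit genes (green). In deposited CPM (left) the medians are 1.10 over all genes and 1.23 over the members. Relative to the library median (right) they are 0.12 and 0.26.

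The small subunit gene with the largest difference was Rps26, whose protein contacts the messenger upstream of the start codon and whose human gene is mutated in Diamond-Blackfan anaemia. Rps26 was listed at 2.70, 7.52, 6.30 and 7.60 CPM in WT1 to WT4 and at 22.5, 25.3, 36.8, 24.01 and 82.3 CPM in KO1 to KO5. Every KO library lay above every WT library, and Rps26 was the only member for which this also held relative to the library median (2.07% of all genes). No member lay wholly below, against 1.74% of all genes. It was higher by 2.37 in deposited CPM (limma adjusted p = 0.0052) and by 1.39 relative to the median (95% interval 0.50 to 2.29, adjusted p = 0.216). Over the settings tried, the relative difference stayed between 1.08 and 1.58, with adjusted p from 0.062 to 0.520. The deposited call was kept whichever library was left out.

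Rps13, a small subunit protein at the interface with the large subunit, was listed at 1.35, 0.79, 1.05 and 0.95 CPM in WT1 to WT4 and at 4.25, 8.60, 5.05, 9.96 and 24.9 CPM in KO1 to KO5. The WT values stand for 1 to 3 reads each. Its difference was 2.26 in deposited CPM (adjusted p = 0.014) and 1.29 relative to the median (adjusted p = 0.418), and without KO5 the deposited call was lost, at 1.91. Rps15a, of the body of the subunit, passed in deposited CPM (1.93, adjusted p = 0.017) and not relative to the median (0.95, adjusted p = 0.540), and the first call was lost without KO3 or KO4, at 1.72 and 1.75.

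Among large subunit genes the differences were largest for Rpl36a and Rpl27a. Rpl36a, a protein of the site from which spent transfer RNA leaves, was listed at 0.45, 9.49, 3.68 and 14.3 CPM in WT1 to WT4 and at 13.1, 8.12, 46.9, 35.7 and 78.5 CPM in KO1 to KO5. KO1 and KO2 lay within the WT range. Its difference was 2.30 in deposited CPM (adjusted p = 0.012, lost without WT1) and 1.32 relative to the median (adjusted p = 0.385). Rpl27a was listed at 2.25, 4.75, 21.5 and 6.65 CPM in WT1 to WT4 and at 34.6, 15.3, 46.2, 32.8 and 63.0 CPM in KO1 to KO5, where only KO2 overlapped WT. Its differences were 2.25 in deposited CPM (adjusted p = 0.0071, kept whichever library was left out) and 1.27 relative to the median (adjusted p = 0.316).

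At the other end, Rps7, Rpl36, Rps19 and Rps27l were among the members with the lowest relative differences, between -0.60 and -0.35, and none of these passed on either scale. Rps7, which binds the p53 regulator Mdm2 outside the ribosome, stood at 15.8, 28.9, 13.1 and 34.2 CPM in WT1 to WT4 and at 36.4, 16.7, 23.1, 35.1 and 33.9 CPM in KO1 to KO5. The groups overlapped nearly throughout. Rps19, the gene most often mutated in Diamond-Blackfan anaemia, stood at 19.8, 32.8, 14.2 and 49.4 CPM in WT1 to WT4 and at 27.6, 16.3, 58.1, 54.5 and 48.6 CPM in KO1 to KO5.

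**Figure D5:**
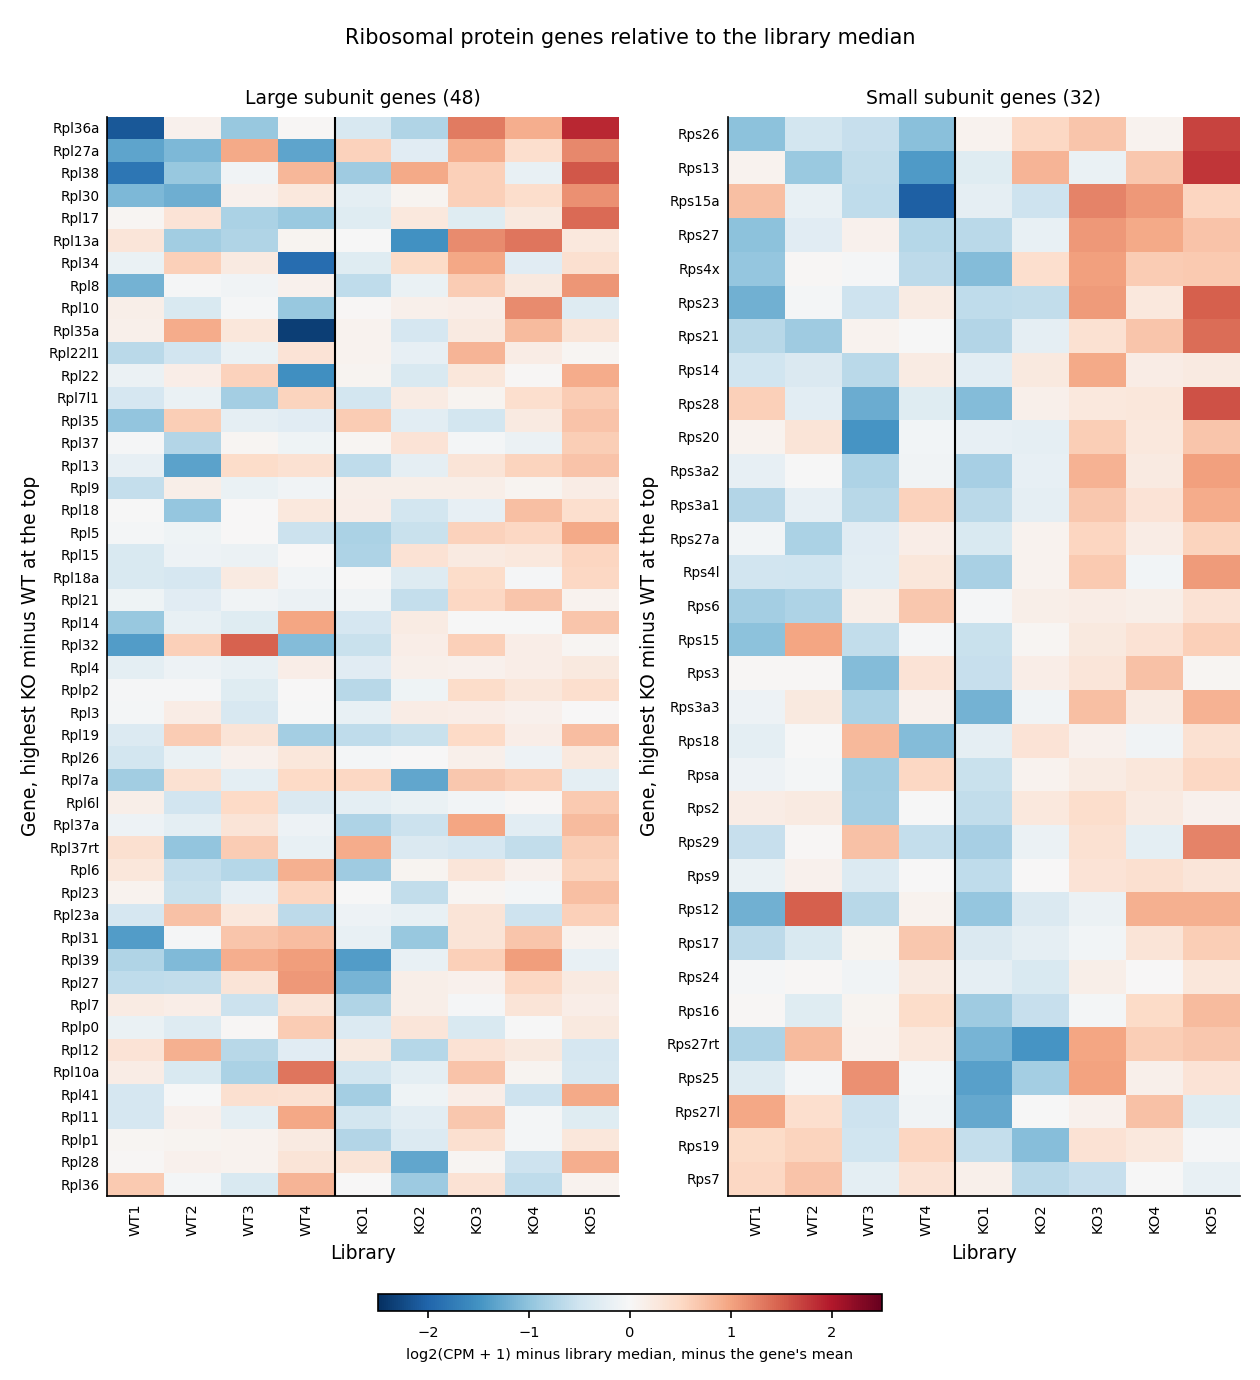
Each row is 1 of 80 of the ribosomal protein genes and each column a library, with colour giving log2(CPM + 1) minus the library median and minus the gene's own mean (red above, blue below). Genes run from the highest to the lowest KO minus WT difference, from Rpl36a and Rps26 at the top to Rpl36 and Rps7 at the bottom. Of the 80 genes drawn, 71 lie above their own mean in KO5, 66 in KO3 and 60 in KO4, but 32 in KO2 and 16 in KO1, beside 24, 31, 33 and 45 in WT1 to WT4.

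Several members also act outside the ribosome. Rpl5 and Rpl11, which with 5S ribosomal RNA bind Mdm2, differed by 1.28 (adjusted p = 0.026) and 0.79 (adjusted p = 0.163) in deposited CPM and by 0.30 and -0.18 relative to the median. The call for Rpl5 was lost without WT1, WT3, KO3, KO4 or KO5, at 1.03 to 1.32. Rps6, the small subunit protein phosphorylated by S6 kinase downstream of mTORC1, stood at 24.8, 40.8, 72.0 and 172 CPM in WT1 to WT4 and at 131, 124, 161, 158 and 202 CPM in KO1 to KO5. It passed in deposited CPM (1.34, adjusted p = 0.022, lost without WT1 or WT2, at 0.93 and 1.16) and not relative to the median (0.37, adjusted p = 0.695). Rps3, which also acts in DNA repair, Rpsa and Rpl8 passed in deposited CPM as well, by 1.28, 1.21 and 1.51, and had relative differences of 0.31, 0.24 and 0.53 with no call. Those deposited calls were lost without WT1, WT3, KO3 or KO4 (Rps3, 0.95 to 1.23), without any library but WT4, KO1 or KO2 (Rpsa, 0.94 to 1.25) and without WT1 or KO5 (Rpl8, 1.02 and 1.24). Rplp0 and Rplp1 of the stalk, at 0.90 and 0.78 in deposited CPM and -0.08 and -0.19 relative to the median, did not pass on either scale. Rplp2 passed in deposited CPM alone (1.14, adjusted p = 0.033, lost without any library but WT4, KO1 or KO2, at 0.96 to 1.17), with a relative difference of 0.16.

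The members with little coding sequence in common with other genes were also compared. Rps3, Rpl8, Rpl4 and Rpl7l1, each with under 25% of windows shared, passed in deposited CPM, by 1.28, 1.51, 1.15 and 1.37. Without WT1 none of these 4 calls was kept, at 1.15, 1.02, 0.90 and 1.10. Those of Rpl4 and Rpl7l1 were also lost without WT2, WT3, KO3, KO4 or KO5, and that of Rpl7l1 without KO2. Relative to the median they differed by 0.31, 0.53, 0.17 and 0.39, none with a call. Of the 323 pseudogene rows, 87 passed as higher in deposited CPM (26.9%, against 32% of all genes) and 0 relative to the median, with median differences of 1.12 and 0.14. With the CPM of these rows added to their members, an alternative chosen after seeing the data, 47 of the 83 passed in deposited CPM, against 32% of all genes in that setting, and 0 relative to the median.

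The ratio of a paralog to its parent was taken within each library. Rpl22l1, the paralog that can replace Rpl22, was listed at 0, 0.79, 1.05 and 3.80 CPM in WT1 to WT4 and at 3.95, 2.39, 7.93, 4.69 and 4.63 CPM in KO1 to KO5. These values stand for 0 to 22 reads. The log2 ratio of Rpl22l1 to Rpl22, with 1 CPM added to each, was -2.73 ± 1.26 (SD, n = 4) in WT and -2.71 ± 0.55 (SD, n = 5) in KO (exact permutation test, two-sided, p = 0.976). The WT mean rested on WT4, at -0.84 from 4 and 8 reads, against -3.26, -3.36 and -3.46 in WT1 to WT3. Without WT4 the difference was 0.65, which did not pass either.

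Of the 4 ratios tested none passed after adjustment. The ratio of Rps27l, a p53 target, to Rps27 averaged 1.03 ± 1.06 over 4 WT libraries and -0.18 ± 0.51 over 5 KO libraries (SD; two-sided exact permutation p = 0.0556, adjusted p = 0.111). The ratio of Rpl7l1 to Rpl7 averaged -3.37 ± 0.36 over 4 WT libraries and -2.91 ± 0.18 over 5 KO libraries (SD; p and adjusted p of the exact test as for Rps27l). That of Rps4l to Rps4x differed by -0.32 (exact permutation adjusted p = 0.550). The smallest p this test can give with 4 and 5 libraries is 0.00794. Rps27 shares its whole coding part with Rps27rt, so its ratio rests on reads that could belong to either. It had only 0, 4, 4 and 2 reads in WT1 to WT4, so the 1 CPM added to each gene weighs heavily on its WT ratios.

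The members of the 60 with a pyrimidine word near the start and those without overlapped in range. The relative difference had a median of 0.31 over the 29 with CTTTCC or CTCTTT and of 0.20 over the 31 with neither, with ranges of -0.60 to 1.39 and -0.35 to 1.29. No test was made of this difference.

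Other messengers of the translation machinery were counted by the same fits, to be read against the 32% of all genes called higher in deposited CPM. Of 30 other genes known as TOP messengers, such as elongation and initiation factors, 17 passed as higher in deposited CPM (56.7%) and 0 relative to the median (medians 1.26 and 0.29). Vim, a TOP messenger for an intermediate filament, passed in deposited CPM (1.36, adjusted p = 0.020, lost without WT1 or WT3, at 1.06 and 1.29) and not relative to the median (0.39, adjusted p = 0.636). Eif3a, an initiation factor subunit, passed on neither scale, with 0.09 in deposited CPM (adjusted p = 0.874) and -0.89 relative to the median (adjusted p = 0.286). Over the settings tried its relative difference ran from -0.99 to -0.61, and DESeq2 called it lower (adjusted p = 0.00794), while the other settings gave adjusted p from 0.158 to 0.559. Of 73 ribosome biogenesis genes 13 passed in deposited CPM (17.8%) and 0 relative (medians 0.95 and -0.03), and of 31 genes of ribosome quality control 7 (22.6%) and 0 (0.94 and -0.04). Of 66 mitochondrial ribosomal protein genes 24 passed in deposited CPM (36.4%) and 0 relative (1.35 and 0.37).

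Of 34 genes of mTORC1 and TOP control, 10 passed in deposited CPM (29.4%, against 32% of all genes) and 1 relative to the median (medians 0.95 and -0.03). The 1 was Ddit4, an inhibitor of mTORC1 induced by stress, at 36.0, 48.3, 13.1 and 32.3 CPM in WT1 to WT4 and 169.7, 189.7, 330.0, 236.6 and 300.2 CPM in KO1 to KO5. Every KO library lay above every WT library. Ddit4 was higher by 2.97 in deposited CPM (limma adjusted p = 2.6e-05) and by 1.99 relative to the median (adjusted p = 0.040). The relative call was lost without WT1, WT3, WT4, KO2, KO3 or KO4, with values of 1.65 to 2.29, and over all settings its adjusted p ran from 0.0015 to 0.308.

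Markers of cell types were counted by the same fits. Of 22 endothelial markers 19 passed as higher in deposited CPM (86.4%, against 32% of all genes) and 0 relative to the median (median relative difference 0.52), and their summed CPM ran from 4696 to 12361 in WT and from 13643 to 32470 in KO. Fabp4, which adipocytes also express, led that sum, with 2589 to 5973 CPM in WT and 7167 to 18869 CPM in KO. Relative medians were -0.41 over 16 adipocyte markers, -0.51 over 11 fibroblast markers and -0.30 over 11 macrophage markers, against 0.12 over all genes. Of these markers 4 (25.0%), 0 and 1 (9.09%) were higher in deposited CPM, and 0 were called relative to the median. Their sums overlapped between the groups. Of 7 mural cell markers 3 passed in deposited CPM (42.9%), with sums of 116 to 242 CPM in WT and 298 to 574 CPM in KO, and of 5 erythroid genes 0, with sums of 61.5 to 1038 and 99.3 to 836 CPM. None of the listed adipocyte, endothelial, macrophage or mural markers was at 0 in any library. Only 11 of 14 macrophage and 7 of 11 mural markers were listed, and no listed gene averaged under 1.77 CPM.

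Skeletal muscle genes stood out in the library where the members were highest. All 13 measured muscle genes passed as higher in deposited CPM, against 32% of all genes. Relative to the median 0 passed, with all 13 above 0 and a median difference of 2.28. They had sums of 111 to 279 CPM in WT, 556 to 1016 CPM in KO1 to KO4 and 10206 CPM in KO5. Tnni2, Pvalb and Actn3 were at 0 in at least 1 library. The part of muscle RNA, of the endothelial share and of mitochondrial rRNA in the members' values was not tested. Without KO5, 11 of the 83 members passed in deposited CPM, against 15.5% of all genes.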

How the data were processed

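The authors deposited CPM (reads per 1000000) for 11802 genes in 9 libraries. The submitters' processing notes list the builds mm10 and GRCm38 and the tools HISAT2 2.1.0 and edgeR 3.32.0 (in R 4.0.2), with Trimmomatic 0.39 and FastQC 0.11.9. For the read counter, its strand setting and reads with multiple matches, nothing is given in the sources used here. Deposited CPM were whole multiples of a step in each library, and at least 99.992% of values came out as whole reads within 0.1 read. Totals ran from 1052310 to 3887685 reads.

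Gene classes, coordinates and copies came from GENCODE M21, which matched 11797 genes and left 5. Near-identical pseudogenes were found by aligning coding parts. Single genes were tested by limma 3.58.1 on log2(CPM + 1), with its trend option (R 4.3.3), on deposited values and after subtracting each library's median. Fold changes on that scale understate the change of low genes. Genes averaging at least 1 CPM were tested, which kept every gene. Benjamini-Hochberg adjusted p under 0.05 over all genes made a call. edgeR 4.0.16 and DESeq2 1.42.0 were run on the recovered reads as alternatives, and scripts were tested on simulated data. Paralog ratios were compared by two-sided exact permutation.

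Members and lists were chosen with earlier results of these data known. Genes named were Mfn2, Rpl22, paralogs and their parents, the 5 highest and 5 lowest relative differences, the extremes of CPM per kb in each subunit, 7 members with roles outside the ribosome, and called or most abundant genes of each list. Values of 3 members are not reported here singly, but counts and sums over the 83 include them. Replicate numbers are shared between groups but did not pair the libraries. Other alternatives covered the pseudocount, low-value filters, normalisation and leaving out each library.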

Additional observations from a re-analysis of the deposited data

Results flagged for a closer look

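Within 88 groups of values (each of 4 or 5 libraries), 6 held a library far from the others of its group, where chance flags about 1 group in 20. The ratio of large to small subunit CPM was 1.46 in WT3 against 1.16 to 1.17 in the other WT libraries. Rps4x was lowest in WT1, at 5.85 CPM, and Rpl36 highest in WT4, at 20.9 CPM. The log2 ratio of Rpl22l1 to Rpl22 was -0.84 in WT4, from 4 and 8 reads. Among KO libraries, Rps26 and Rps13 were highest in KO5, at 82.3 and 24.9 CPM. KO5 also had the most muscle CPM and the most reads.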

How the results depend on the processing

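The count of members higher in deposited CPM was 41, against 32% of all genes. It was 0 under quantile normalisation (0.0339% of all genes) and 0 with mitochondrial rRNA left out (0.186%). It was 19 in limma without trend (24.6% of all genes), 18 in edgeR (17.8%), 11 with the replicate block (16.4%) and 39 in DESeq2 (32.3%). Leaving out each library in turn gave 4 to 61 members, against 9.27% to 50.1% of all genes. Over all genes, the 3780 higher and 24 lower became 4 and 5 under quantile normalisation, 22 and 4 without mitochondrial rRNA, and 1932 and 8 with the block. They became 2104 higher in edgeR, 10 lower without trend, and 1094 to 5916 and 7 to 23 without single libraries. Relative to the median, the 4 higher and 9 lower of all genes became 2 and 2 (pseudocount 0.5), 0 and 0 (without trend), 8 and 30 (block), 1 and 4 (edgeR), 29 and 112 (DESeq2), and 0 to 21 and 0 to 106 without single libraries. There were 2 lower with a mean of at least 5 CPM. Quantile normalisation replaces both scales by 1 fit, so its 4 and 5 above hold here too and are no second check. Relative to the median 0 members passed in the settings run, of 83 tested, or 80 with a mean of at least 5 CPM and 68 given an adjusted p by DESeq2. The median deposited difference of the members was 0.27 under quantile normalisation.

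Rpl22 in deposited CPM was 0.35 under quantile normalisation, 1.39 without trend (adjusted p = 0.051), 1.15 with the block, 0.83 without mitochondrial rRNA and 1.43 in edgeR, and ran from 1.15 to 1.63 without single libraries. Rpl22l1 ran from 1.07 to 1.82. Under quantile normalisation the deposited differences turned negative for Mfn2 (-0.17), Rps27l (-0.61), Rps27rt (-0.35), Rps7 (-0.59), Rpl36 (-0.55), Rps19 (-0.47), Rplp1 (-0.15), Rpl11 (-0.18) and Rplp0 (-0.0895). Eif3a became -0.61, and -0.50 without mitochondrial rRNA, -0.012 in edgeR and in DESeq2, and -0.11 to 0.36 without single libraries. Without mitochondrial rRNA the sign also turned for Rps7 (-0.20), Rpl36 (-0.042) and Rps19 (-0.081). Small relative differences changed sign for Rpl7 (0.12 with a pseudocount of 5, 0.03 under quantile normalisation), Rpl22l1 (-0.15), Rpl13a (-0.092) and Rplp0 (0.015), these 3 with a pseudocount of 5. Rps27rt became 0.18 without mitochondrial rRNA, 0.25 in edgeR and 0.28 in DESeq2. With copy rows added, Rps2 became -0.027 and Rpl11 0.0063. Without single libraries the relative values ran from -0.44 to 0.059 (Mfn2), -0.02 to 0.68 (Rpl22), -0.26 to 0.11 (Rpl7), -0.46 to 0.18 (Rps27rt), -0.046 to 0.37 (Rps2), -0.0081 to 0.45 (Rpsa), -0.37 to 0.10 (Rpl11) and -0.20 to 0.12 (Rplp0). The Rpl22l1 to Rpl22 ratio differed by -0.55 with a pseudocount of 5 and by -0.22 to 0.65 without single libraries.

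The share of the 78 protein-coding members averaged 0.603% in WT and 0.793% in KO over nuclear protein-coding genes. That of all 83 members averaged 0.433% and 0.677% without mitochondrial rRNA (a ratio of 1.56), and 0.689% and 1.47% with copy rows added. The cause of these changes was not tested. The deviations of libraries with the same replicate number correlated at 0.029, -0.022, -0.040 and 0.039, and only WT1 matched its own number best, so the block is no paired analysis. With 3056 to 30133 reads over 83 members, the lowest members rest on a few reads.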
